A study of Mus musculus with 8 samples.

Results

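The genes described here make glucose in the liver or respond to fasting, and they were measured in whole-liver RNA of Bgn knockout and wild type mice. The list, made by gene symbol, holds 10 genes, of which 9 (Pck1, G6pc, Fbp1, Pcx, Slc37a4, Ppargc1a, Foxo1, Irs2 and Igfbp1) had a probe on the array, 1 probe each, among 25697 probes of 16593 named genes. No probe was matched to the other listed gene, Sds (serine dehydratase), by symbol, Entrez number or accession, so it was not analysed here. All 9 probes passed the filter on dim probes, as did 11494 probes in all. Membership goes by name and no measured value enters it, though the genes were chosen with earlier results of these data known.

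The 8 male mice were aged 13 weeks, on a C57BL/6 background, and were 4 Bgn knockouts and 4 wild types, with 1 single-colour Illumina bead array per liver. Bgn encodes biglycan, a small proteoglycan of the extracellular matrix. Food and water were freely available, and the labels give neither an hour of collection nor a fast. The sources used here do not say which part of Bgn was removed, in which cells, or whether the mice shared litters. In whole tissue, fewer cells of a type and less RNA per cell cannot be told apart.

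The liver makes glucose between meals from lactate, amino acids and glycerol. Glucagon, through cyclic AMP, and glucocorticoids raise transcription of the rate-limiting enzymes. Insulin opposes them by keeping the transcription factor FOXO1 out of the nucleus. Igfbp1 and Irs2 are well known as genes that FOXO1 switches on when insulin is low, and PGC-1alpha, the product of Ppargc1a, is the coactivator that fasting induces in liver.

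The promoters of 5 members are printed because they belong to the members best known as transcriptional targets of insulin and glucagon. Each is the 250 bases before the annotated start, from RefSeq on GRCm38.p6, read 5′ to 3′ in the direction of transcription. Capitals mark the letters CAAAACA (the core of the insulin response sequence, a FOXO-type element) or CGTCA (a half-site of the cyclic AMP response element) on either strand. The window of Ppargc1a lies inside the gene's annotated span, at a start downstream of its farthest one.
Pck1 (chr2:173152823-173153072, plus strand): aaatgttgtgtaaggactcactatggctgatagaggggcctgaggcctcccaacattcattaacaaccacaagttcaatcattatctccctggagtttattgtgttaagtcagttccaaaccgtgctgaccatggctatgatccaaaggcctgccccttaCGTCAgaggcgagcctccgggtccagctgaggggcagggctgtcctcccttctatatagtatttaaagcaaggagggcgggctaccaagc
Ppargc1a (chr5:51567726-51567975, minus strand): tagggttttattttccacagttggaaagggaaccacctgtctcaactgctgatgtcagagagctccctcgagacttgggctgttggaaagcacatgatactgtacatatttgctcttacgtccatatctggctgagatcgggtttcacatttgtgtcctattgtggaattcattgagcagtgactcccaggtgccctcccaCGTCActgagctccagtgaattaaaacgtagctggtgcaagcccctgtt
G6pc (chr11:101367466-101367715, plus strand): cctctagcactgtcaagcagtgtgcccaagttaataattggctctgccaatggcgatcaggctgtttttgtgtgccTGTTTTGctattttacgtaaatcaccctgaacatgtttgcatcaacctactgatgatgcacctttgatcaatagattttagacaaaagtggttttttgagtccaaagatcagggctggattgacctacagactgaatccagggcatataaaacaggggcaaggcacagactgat
Irs2 (chr8:11008930-11009179, minus strand): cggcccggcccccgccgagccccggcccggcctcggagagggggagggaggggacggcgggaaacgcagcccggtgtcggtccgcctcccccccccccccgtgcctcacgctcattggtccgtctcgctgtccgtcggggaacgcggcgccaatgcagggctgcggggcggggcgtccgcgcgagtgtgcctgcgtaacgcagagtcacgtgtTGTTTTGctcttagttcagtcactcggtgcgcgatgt
Igfbp1 (chr11:7197537-7197786, plus strand): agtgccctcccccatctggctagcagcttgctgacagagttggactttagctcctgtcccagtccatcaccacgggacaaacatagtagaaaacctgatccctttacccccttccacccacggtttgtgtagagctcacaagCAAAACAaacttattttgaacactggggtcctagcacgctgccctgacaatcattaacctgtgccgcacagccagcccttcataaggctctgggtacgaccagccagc

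With the base before the start as position -1, the CAAAACA core begins at -108 in Igfbp1, and its reverse complement begins at -174 in G6pc and at -37 in Irs2. CGTCA begins at -90 in Pck1 and at -49 in Ppargc1a. The 9 genes have 12 windows, since Slc37a4 and Pcx have more than 1 start. CAAAACA was in 3 of the 12 windows, against 5.56% of 32851 promoter windows of that length, and CGTCA in 4 of 12 (Pck1, Ppargc1a and 2 windows of Slc37a4 that overlap), against 17.8%. The full element TGACGTCA, which contains that half-site, was in 0 of 12 (1.55% of all windows), and the forkhead letters GTAAACA were in 0 of 12 (3.17%). CGTCA was searched after the windows had been seen. These are matches of letters in windows, and no enrichment was tested. Several of these genes are known targets of insulin and glucagon, so the shares are not independent of the motifs chosen.

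The targeted gene was low where the labels place the knockout: the deposited Bgn signal was 169 to 203 on the knockout arrays and 2900 to 4940 on the wild type arrays. Median signal per array lay between 142 and 164 in the knockout and between 141 and 157 in wild type, and 11352 to 11910 probes were detected per array. The summed background-corrected and quantile-normalized signal of 10 hepatocyte markers, 8 to 10 of them detected per array, was 172351 to 179047 in the knockout and 173786 to 180793 in wild type. The brightest of them stood near the top of the scale, where quantile normalization makes arrays alike, so this sum cannot compare hepatocyte content. Skeletal muscle markers stood apart on 3 arrays, where 15 or 16 of 16 were detected: their sum was 16904 and 78543 on knockout replicates 1 and 2 and 56383 on wild type replicate 4, against 550 to 613 on the other 5 arrays. The 12 Kupffer cell markers summed to 3232 to 4875 in the knockout and 4174 to 5759 in wild type. By each gene's brightest probe, all 12 had a difference below 0 (median -0.208), as did 4098 of 8105 tested genes. Other probes of Adgre1 and Lyz2 had 0.05 and 0.01. Of the 12, 0 passed in limma, and 4 (Cd163, Clec4f, Aif1 and Cd14) were lower at an unadjusted p under 0.05, against 7.37% of all tested genes. The part of Kupffer cells in the members' values was not tested. Of 6 kidney markers 5 were not detected on any array, nor were 3 of 5 pancreas markers (Cpa1, Ins2 and Gcg) or 3 of 6 adipose markers (Plin1, Retn and Fabp4). The other 2 pancreas markers, Cela1 and Amy2a5, were detected on every array. They summed to 1419 to 1877 in the knockout and 608 to 1879 in wild type. Of the other 3 adipose markers 1 to 3 were detected per array. Those summed to 12973 to 17852 in the knockout and 4471 to 17577 in wild type. Only Car3 of the 3 passed the filter on dim probes, at log2 13.66 to 14.12 in the knockout and 12.11 to 14.09 in wild type. The sum therefore rests almost wholly on Car3, and 1 gene cannot measure the amount of adipose RNA.

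None of the 9 genes changed with the genotype past the threshold (0 higher and 0 lower, limma with Benjamini-Hochberg adjustment over 11494 probes at 0.05), where 0.383% of all tested probes were higher and 0.722% lower in the knockout. Ppargc1a had the largest difference, with a knockout level of 0.583 times wild type (95% interval 0.388 to 0.878), and Irs2 the next, at 0.68 times (0.43 to 1.08). The enzymes of glucose production, Pck1, G6pc, Fbp1 and Pcx, had fold values between 0.939 and 1.13. At an unadjusted p under 0.05, 1 of 9 passed, Ppargc1a, against 13.3% of all tested probes. In 0 of 9 were the groups free of overlap, against 8.07% of tested probes, and an exact permutation test, which at 4 against 4 arrays passes 0.05 only without overlap, gave a smallest two-sided p of 0.0571. The median difference of the 9 was 0.127 on the log2 scale, and 0.005 over all tested probes.

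**Figure D1:**
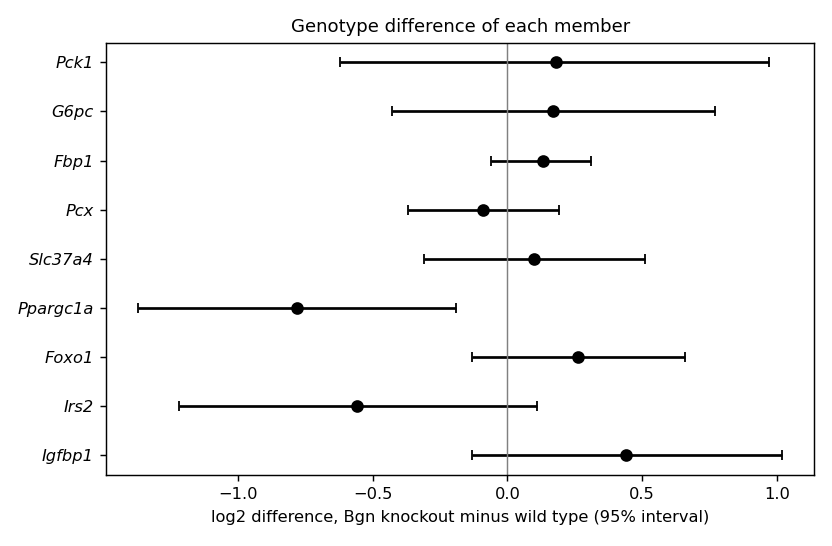
Log2 difference in background-corrected intensity, Bgn knockout minus wild type, for each of the 9 genes (points), with the 95% interval of the limma fit (bars, 4 arrays per group). The interval of Ppargc1a, -1.37 to -0.19, lies below 0 before adjustment for many tests, and the other 8 include 0.

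Pyruvate carboxylase, the product of Pcx, and the cytosolic PEP carboxykinase, that of Pck1, together carry pyruvate past the irreversible step of glycolysis. As log2 intensity after background correction and quantile normalization (the scale of all values below unless stated), Pck1 was 7.84, 8.54, 9.12 and 9.63 on knockout replicates 1 to 4, against 8.31, 8.45, 8.70 and 8.97 on wild type replicates 1 to 4. The knockout livers held both the lowest level and the 2 highest, so they surrounded the wild type. Pck1 averaged 8.78 ± 0.77 in the knockout and 8.61 ± 0.29 in wild type (SD, n = 4 each), a difference of 0.18 (SE 0.35; limma adjusted p = 0.871). Its residual SD of 0.58 was wider than that of 95.9% of the tested probes, and the interval of the difference reached from -0.62 to 0.97. Without knockout replicate 4 the difference was -0.11, and without knockout replicate 1 it was 0.49. Without the 3 arrays with muscle transcripts, an alternative chosen after seeing the data, it was 0.90 (limma adjusted p = 0.301), with 2 knockout and 3 wild type arrays left.

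Pcx was 9.92, 10.04, 9.80 and 10.09 on the knockout arrays, against 10.09, 9.95, 10.33 and 9.85 on the wild type arrays. The groups overlapped almost fully, and the difference was -0.09 (SE 0.13; limma adjusted p = 0.808). Its interval, -0.37 to 0.19, holds no change beyond 0.774 or 1.14 times the wild type level.

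Fructose-1,6-bisphosphatase, encoded by Fbp1, catalyses the next irreversible step. Fbp1 was 13.21, 13.26, 13.26 and 13.31 in the knockout, against 13.01, 13.29, 13.22 and 13.00 in wild type. It was the most even of the 9: its residual SD of 0.11 was wider than that of only 7.98% of tested probes. The difference of 0.13 (SE 0.086; limma adjusted p = 0.556) had an interval of -0.06 to 0.31.

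Glucose leaves the hepatocyte only after glucose-6-phosphatase removes its phosphate in the endoplasmic reticulum. G6pc encodes the catalytic subunit and Slc37a4 the transporter that brings glucose-6-phosphate to it. G6pc was 13.51, 13.15, 13.23 and 12.54 in the knockout, against 13.01, 13.33, 12.32 and 13.09 in wild type. Each group held 3 arrays near 13 and 1 low array, knockout replicate 4 and wild type replicate 3, with deposited signals of 5170 and 5300 where the others had 7560 to 13200. The difference was 0.17 (SE 0.26; interval -0.43 to 0.77; limma adjusted p = 0.824). It was 0.36 without knockout replicate 4 and -0.034 without wild type replicate 3.

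Slc37a4 was 8.23, 8.69, 8.50 and 9.16 in the knockout, against 8.37, 8.47, 8.74 and 8.59 in wild type. Knockout replicate 4, low in G6pc, was the highest in Slc37a4. The genotypes differed by 0.10 (SE 0.19; interval -0.31 to 0.51; limma adjusted p = 0.86), and by -0.072 without knockout replicate 4.

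**Figure D2:**
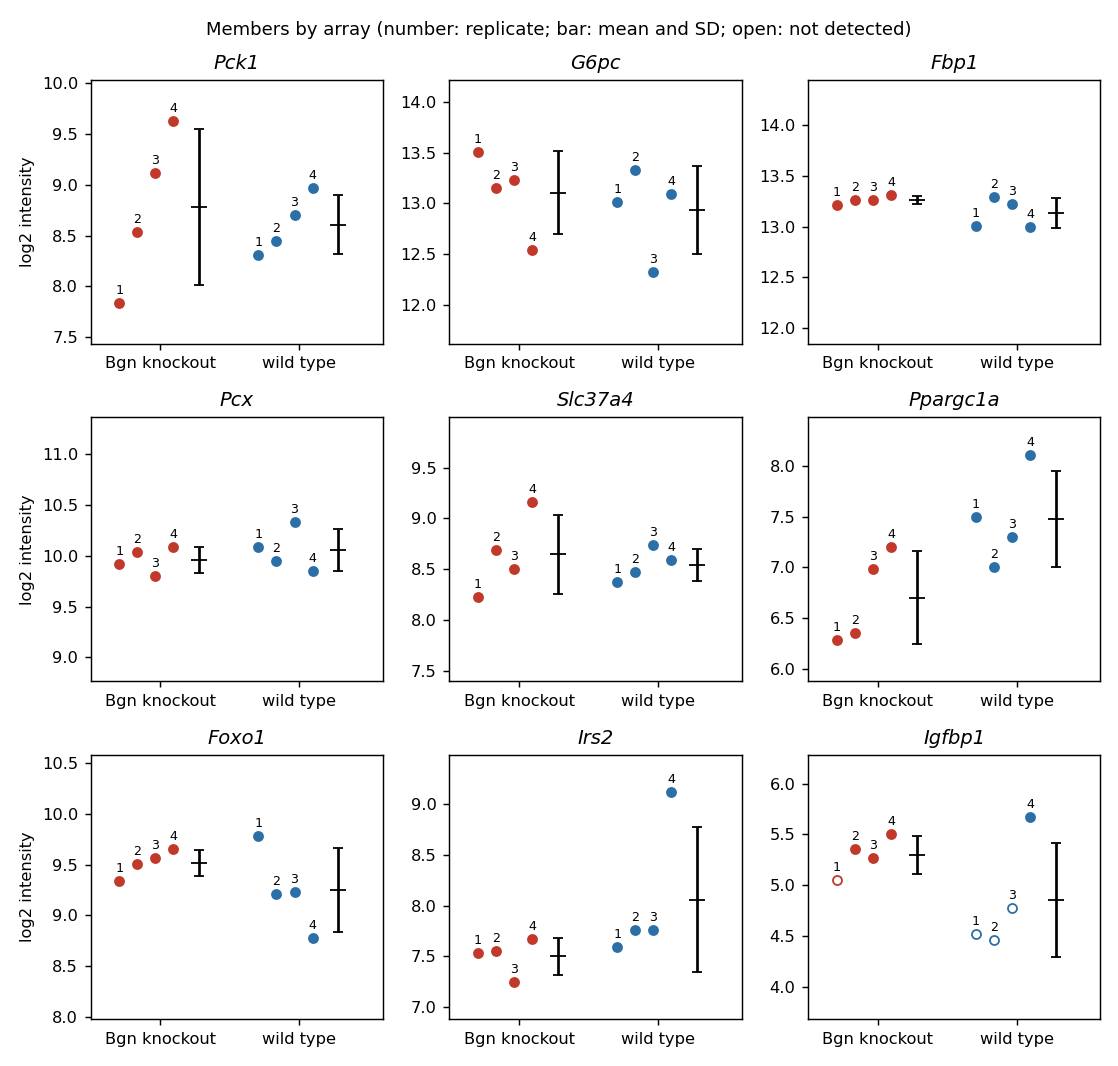
Log2 intensity (background-corrected, quantile-normalized) of the 9 genes on every array, Bgn knockout left and wild type right; numbers are replicates, bars the mean and SD of 4 arrays, open points arrays without detection, and every panel spans the same log2 range. Irs2 stands alone at 9.12 on wild type replicate 4, Fbp1 is nearly flat, and Pck1 spreads from 7.84 to 9.63 in the knockout.

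Among the regulators, Ppargc1a was 6.28, 6.35, 6.98 and 7.20 in the knockout, against 7.50, 7.0, 7.30 and 8.11 in wild type. On 3 of the 4 knockout arrays Ppargc1a lay below every wild type array, and on knockout replicate 4 it lay above wild type replicate 2. The means were 6.70 ± 0.46 in the knockout and 7.48 ± 0.47 in wild type (SD, n = 4 each), a difference of -0.78 (SE 0.27; limma unadjusted p = 0.014, adjusted p = 0.242). The exact two-sided permutation p was 0.0571, where 70 label assignments allow no less than 0.0286. As deposited, Ppargc1a signals were 227, 229, 244 and 233 in the knockout, against 265, 230, 278 and 434 in wild type. Without background correction the difference was -0.41.

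Skeletal muscle also expresses Ppargc1a. The highest Ppargc1a value stood on wild type replicate 4 and the 2 lowest on knockout replicates 1 and 2, which are the 3 arrays with muscle markers. Without wild type replicate 4 and knockout replicate 2 the difference was -0.45 (limma adjusted p = 0.779), and without all 3 it was -0.18. Knockout replicate 2, with the highest muscle sum, had a Ppargc1a level of 6.35. The part of muscle RNA in the genotype difference was not tested.

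**Figure D3:**
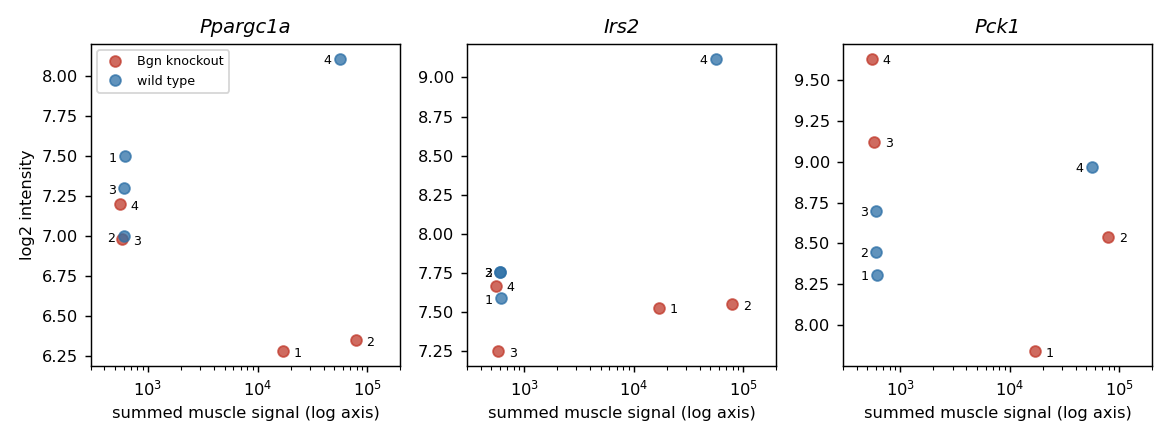
Log2 intensity of Ppargc1a, Irs2 and Pck1 against the summed background-corrected and quantile-normalized signal of 16 skeletal muscle markers (log axis) on each of the 8 arrays. Numbers are replicates. Of the 3 arrays high in muscle markers, wild type replicate 4 has the highest Ppargc1a and Irs2, and knockout replicates 1 and 2 have the lowest Ppargc1a.

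Foxo1, whose product insulin restrains, was 9.34, 9.51, 9.56 and 9.65 in the knockout, against 9.78, 9.21, 9.23 and 8.78 in wild type. The knockout arrays sat inside the range of the wild type arrays, which held both the highest and the lowest level. Its spread was 0.13 in the knockout and 0.41 in wild type (SD, n = 4 each; the difference in spread was not tested). The mean difference was 0.26 (SE 0.18; interval -0.13 to 0.66; limma adjusted p = 0.568), and it was 0.44 without wild type replicate 1 and 0.11 without wild type replicate 4.

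Irs2, the adaptor that couples the insulin receptor to PI3-kinase, was 7.53, 7.55, 7.25 and 7.67 in the knockout, against 7.59, 7.76, 7.76 and 9.12 in wild type. Of the 8 arrays, 7 lay within 7.25 to 7.76, and wild type replicate 4 stood above them. The difference was -0.56 (SE 0.30; interval -1.22 to 0.11; limma adjusted p = 0.457; exact permutation p = 0.0571). Without wild type replicate 4 it was -0.20 (limma adjusted p = 0.724).

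Igfbp1, a secreted binding protein of insulin-like growth factors, was near the detection limit. It was detected on 3 of 4 knockout arrays and 1 of 4 wild type arrays, with values of 5.05, 5.36, 5.27 and 5.50 in the knockout, against 4.52, 4.46, 4.77 and 5.67 in wild type. All 4 knockout arrays lay above 3 of the wild type arrays and below wild type replicate 4. The difference was 0.44 (SE 0.26; interval -0.13 to 1.02; limma adjusted p = 0.50; exact permutation p = 0.20). Deposited signals of 155 to 179 in the knockout, against 127 to 183 in wild type, gave 0.15 without background correction.

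Whether these genes vary together from mouse to mouse was examined over all 36 pairs of the 9, on the 8 arrays. Pairs with a positive Pearson r numbered 21, and 15 had a negative one. No pair passed adjustment over the 36 (smallest adjusted p = 0.264 by exact permutation; 5 at an unadjusted p under 0.05, and 0 adjusted and 3 unadjusted for Spearman's rho). Pck1 and Slc37a4 had r = 0.83 and rho = 0.79 (exact permutation p = 0.0124 and 0.0279). G6pc ran against Pcx, with r = -0.80 and rho = -0.74 (exact permutation p = 0.0148 and 0.0458), and against Slc37a4, with r = -0.75 and rho = -0.71 (exact permutation p = 0.0294 and 0.0576). Foxo1 and Irs2 had r = -0.81 and rho = -0.60 (exact permutation p = 0.0244 and 0.132), and Ppargc1a and Irs2 had r = 0.72 and rho = 0.76 (exact permutation p = 0.0366 and 0.0368). The adjusted p was 0.264 for each of the 5 values of r, and 0.50 to 0.68 for their rho.

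The 5 values of r varied to unlike degrees with the livers kept. Leaving out a gene's farthest arrays narrows its range, which can by itself weaken r. With the 2 arrays farthest from the median of the gene named first here left out (for G6pc, knockout replicate 4 and wild type replicate 3), r was 0.26 for Pck1 with Slc37a4, -0.33 for G6pc with Pcx and -0.53 for G6pc with Slc37a4. For Foxo1 with Irs2 it was -0.54, and for Ppargc1a with Irs2 it was 0.26. On deviations from the group means the 5 values of r, in that order, were 0.83, -0.79, -0.84, -0.76 and 0.58. Their exact permutation p, with arrays exchanged within a genotype, was 0.0712, 0.0399, 0.0122, 0.219 and 0.186. Computed so, 5 of the 36 pairs had an unadjusted p under 0.05 and 0 an adjusted one (smallest 0.219). The other 3 were Pck1 with Igfbp1 (r = 0.57, exact permutation p = 0.00694), Pck1 with Ppargc1a (r = 0.80, exact permutation p = 0.0243) and Ppargc1a with Igfbp1 (r = 0.77, exact permutation p = 0.033). Igfbp1 was detected on only 3 knockout arrays and 1 wild type array, so its values of r rest in part on background. Without the 2 arrays highest in muscle markers, Foxo1 with Irs2 had -0.40 and Ppargc1a with Irs2 had 0.29, and the other 3 of the first 5 pairs had 0.87, -0.86 and -0.79. These are values of r without subtraction of group means. Computed so, Pck1 with Igfbp1, Pck1 with Ppargc1a and Ppargc1a with Igfbp1 had 0.57, 0.44 and 0.11 over all arrays. Without those 2 arrays they had 0.65, 0.46 and -0.27.

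**Figure D4:**
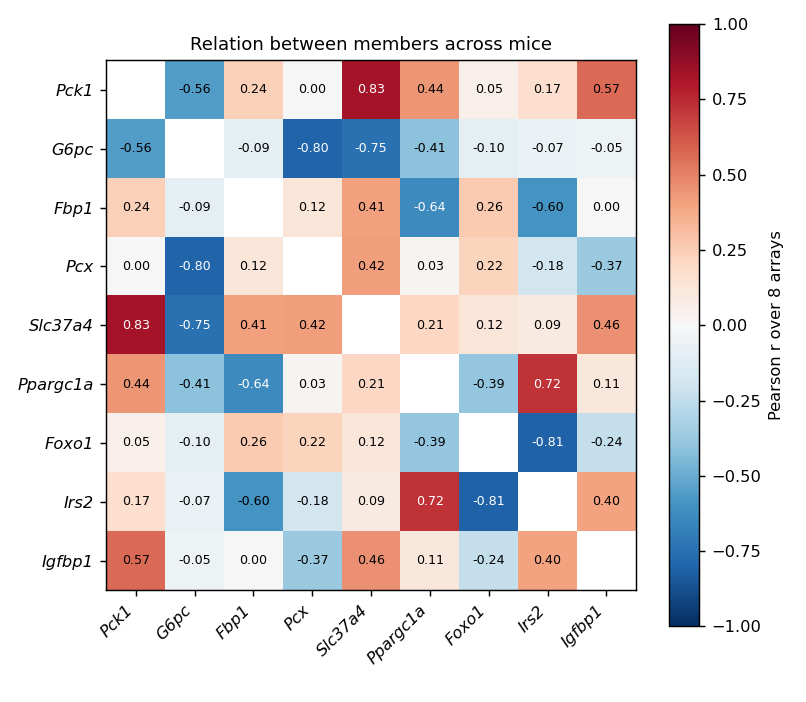
Pearson r between each pair of the 9 genes over the 8 arrays (colour and number). The strongest are Pck1 with Slc37a4 (0.83), Foxo1 with Irs2 (-0.81) and G6pc with Pcx (-0.80), and none of the 36 passed adjustment.

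Over 8105 genes, the genes with the profile most like a member's were taken by Pearson r over the 8 arrays after the group means were subtracted. For Pck1 they were Ndfip2 (0.975), Tprn (0.972) and H6pd (0.964). For Irs2 they were 2310039H08Rik (0.974), Pink1 (0.969) and Ephx1 (0.967), and for Igfbp1 they were Srsf6 (0.983), Stx12 (0.977) and Rhbdf1 (0.975). Igfbp1 was not detected on 4 of the 8 arrays, so its profile rests in part on background. Wild type replicate 4, an array with muscle markers, deviated most from its group mean in Irs2 (1.06) and Igfbp1 (0.82). The r values of Irs2 and Igfbp1 therefore rest largely on that array. These are the highest values among 8105 genes on 8 arrays, given as a description.

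In all, 5 wider lists of the pathway were read beside the members, and no gene of any list passed in limma (0 higher and 0 lower in each, against 0.395% higher and 0.802% lower of 8105 genes). At an unadjusted p under 0.05, 6.16% of those genes were higher and 7.37% lower, which is the background for the counts below. Of 26 measured genes of hormone signalling and its transcription factors, 0 were higher and 4 were lower at that level, with a median log2 difference of -0.063, against -0.003 over all the genes. Closest to the threshold was Ppargc1b, which encodes PGC-1beta, the relative of PGC-1alpha known for lipid synthesis and mitochondria. Ppargc1b was 7.80, 7.96, 8.18 and 8.21 in the knockout, against 8.73, 8.78, 8.49 and 8.74 in wild type. Its groups did not overlap, and the difference was -0.65 (SE 0.14; limma adjusted p = 0.0543). Of all alternatives, Ppargc1b passed only with array weights (-0.73, limma adjusted p = 0.0138). The transcription factors Klf9 (-0.40, SE 0.14) and Foxa2 (-0.61, SE 0.22) had adjusted p = 0.258 each in limma. The remaining lower gene, Inppl1, had -0.41 (SE 0.15, limma adjusted p = 0.264), and -0.37 and -0.52 at its other probes.

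Among 18 other enzymes and carriers of glucose production, 1 was higher and 0 were lower at an unadjusted p under 0.05 (6.16% and 7.37% of all genes), with a median of 0.061. These shares are near the background. That gene, Mdh2, the mitochondrial malate dehydrogenase, was 10.34, 10.35, 10.45 and 9.69 in the knockout, against 9.60, 9.56, 9.84 and 9.79 in wild type. The level on 3 knockout arrays stood above all wild type arrays, and the difference was 0.51 (SE 0.16; limma adjusted p = 0.201). Mdh2 passed without knockout replicate 4, its lowest knockout array (0.68, limma adjusted p = 0.0218), and with array weights (0.62, limma adjusted p = 0.0396). Under no other alternative did it pass. Mdh1, the cytosolic enzyme, had 0.27 (SE 0.14; limma adjusted p = 0.448) and 0.63 at its other probe, and Tpi1, triose phosphate isomerase, had -0.14 (SE 0.10; limma adjusted p = 0.574).

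Of 17 measured genes listed under amino acid breakdown, 1 was higher and 4 were lower at an unadjusted p under 0.05 (6.16% and 7.37% of all genes), with a median of -0.039. Oat (ornithine aminotransferase) had -0.28 (SE 0.09), Hpd (tyrosine breakdown) -0.34 (SE 0.11) and Prodh (proline dehydrogenase) -0.35 (SE 0.12), with limma adjusted p of 0.211, 0.22 and 0.227. The remaining lower gene, Asns, encodes asparagine synthetase, which makes an amino acid and does not break one down. Asns had -2.48 (SE 0.97, limma adjusted p = 0.345), with 5.75 to 7.08 in the knockout and 6.86 to 10.66 in wild type. The higher gene was Cth, with 0.39 (SE 0.15, limma adjusted p = 0.281). Among 12 genes of glucose use and fat synthesis, 0 were higher and 1 was lower at that level, a share near the background. Gckr, the inhibitor of glucokinase, had -0.62 (SE 0.21; limma adjusted p = 0.223). Of all alternatives, Gckr passed only without wild type replicate 3, its lowest wild type array (-0.83, limma adjusted p = 0.0285). Srebf1 and Pklr had 1.05 (SE 0.74; limma adjusted p = 0.595) and 0.78 (SE 0.49; limma adjusted p = 0.539), both with wide spread inside each genotype.

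In the list of fat use and ketone genes, 0 of 15 were higher and 2 were lower at an unadjusted p under 0.05 (6.16% and 7.37% of all genes), with a median of -0.112. Lpin2, a phosphatidate phosphatase, was 7.90, 7.94, 8.79 and 9.05 in the knockout, against 9.59, 9.14, 9.19 and 9.31 in wild type. All knockout arrays lay below all wild type arrays, and the difference was -0.89 (SE 0.25; limma adjusted p = 0.158). Of all alternatives, Lpin2 passed only without knockout replicate 4, its highest knockout array (-1.10, limma adjusted p = 0.043). The fatty acid hydroxylase Cyp4a14 was 9.99, 10.48, 8.55 and 12.58 in the knockout, against 12.66, 12.28, 14.55 and 14.60 in wild type. Knockout replicate 4 reached the lower wild type arrays, and the difference of -3.12 (SE 1.01) had an adjusted p of 0.276 in limma. Lpin1, which also acts with PGC-1alpha as a coactivator, had -1.45 (SE 0.73; limma adjusted p = 0.459).

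**Figure D5:**
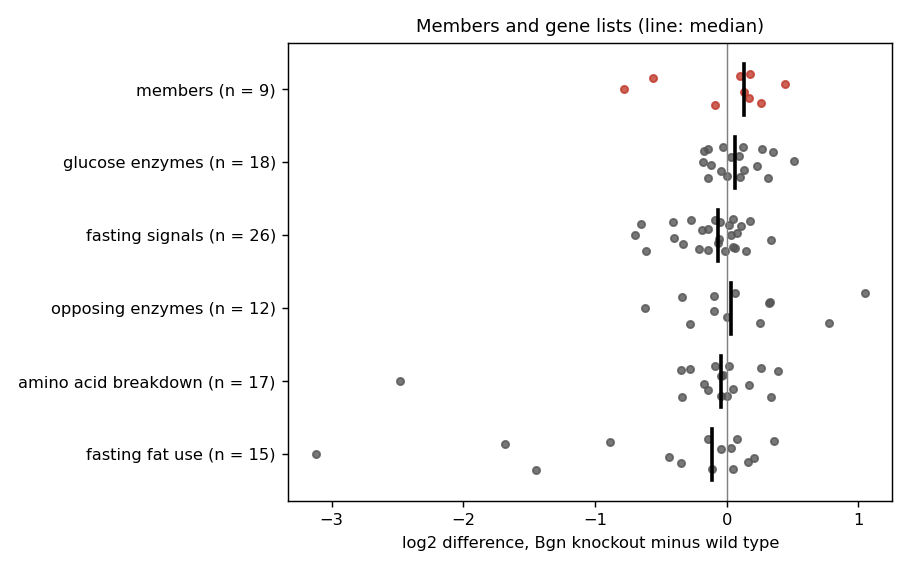
Log2 difference, Bgn knockout minus wild type, of the 9 members and of the measured genes of 5 pathway lists (points), with each list's median (line). The medians lie between -0.112 and 0.127, and no point passed the adjusted threshold.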

How the data were processed

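Liver RNA of 8 mice, carrying a biotin label, was hybridised to Illumina bead arrays, as the labels record. The deposited table holds, per the file headers, an average signal intensity and a detection p-value per probe and array; the intensity is linear, with no subtraction or normalization visible in its values. A second table holds the authors' normalized intensity. Tools listed in the submitters' processing notes are R 2.15.0 and lumi 2.10.0.

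From the deposited intensity, limma 3.58.1 in R 4.3.3 corrected background (normexp guided by detection p-values, offset 16), quantile-normalized and took log2. Probes with a detection p under 0.05 on at least 4 of 8 arrays were tested (11494). Bgn knockout was compared with wild type by lmFit and eBayes (trend, robust), without covariates, with Benjamini-Hochberg adjustment over all of them; the fit was checked on simulated data. Genes were named from the platform table (23978 probes with 1 symbol, 1719 with none). Gene lists were read through each gene's brightest tested probe. Named are genes with a changed probe or else the 3 with the smallest p, and also Asns, Cth and Inppl1. Members, lists and alternatives were chosen with earlier results of these data known. Nothing says that the mice came from separate litters or cages, so p-values measure the spread between these samples, and the number of arrays limits precision. The columns name no chips, so no batch could be fitted. Alternatives were the background correction, scaling, filter, variance model, array weights, replicate block and arrays left out. Plots came from Python 3.11.15 and matplotlib 3.10.9.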

Additional observations from a re-analysis of the deposited data

Results flagged for a closer look

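Irs2 was 9.12 as log2 intensity on wild type replicate 4, where the other wild type arrays had 7.59 to 7.76. The gap was 0.889 of the group's range, above Dixon's critical value for 4 arrays. Of 18 groups of 4 arrays checked (9 genes in 2 genotypes), 1 stood out in this way, and chance marks about 1 in 20. The same array had the highest Ppargc1a and Igfbp1 and the lowest Foxo1 of the 8, and is 1 of the 3 arrays with skeletal muscle markers.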

How the results depend on the processing

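No member passed limma's adjusted threshold under any alternative that tested it (164 values, lowest adjusted p = 0.121). The sign of the difference was the same in all alternatives run for Fbp1, Ppargc1a, Foxo1, Irs2 and Igfbp1. It turned without 1 array for the other 4: with each array left out, differences ranged from -0.11 to 0.49 for Pck1, -0.034 to 0.36 for G6pc, -0.16 to 0.002 for Pcx and -0.072 to 0.24 for Slc37a4. Igfbp1 was not tested where fewer than 4 arrays detected it. Among the pathway lists 2 genes passed with array weights, 0 to 2 with 1 array left out and 0 under every other alternative. Those that passed with 1 array left out did so without an array that ran against their difference, which by itself enlarges a difference. Over all probes, 127 passed as reported, 197 with array weights, 59 to 121 with 1 array left out, 48 without the 2 arrays highest in muscle and 25 without all 3 such arrays, where fewer arrays were left. With the replicate block 64 probes and 0 members passed (2 members at an unadjusted p under 0.05). Deviations of same-numbered livers from their group means correlated with r of 0.0566, -0.0593, -0.297 and -0.123. A shared litter, cage or day need not show in these values, so whether the numbers pair the mice cannot be told. The mean over probes of a gene was not run, since each member has 1 probe. Differences of dim probes depend on the background correction: that of Ppargc1a was -0.78 as reported and -0.41 without it, and that of Igfbp1 was 0.44 and 0.15. The causes were not tested.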

Other observations

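Knockout replicate 4 and wild type replicate 3 deviated partly alike, and for some genes below wild type replicate 4 stood with them. Over the 11494 tested probes, the deviations of knockout replicate 4 and wild type replicate 3 from their own group means correlated with r = 0.468. That was the highest of the 16 pairs of a knockout and a wild type array, across probes, which are not independent. G6pc was lowest in its group on both, at 12.54 on knockout replicate 4 and 12.32 on wild type replicate 3. Srebf1, the transcription factor of insulin-driven fat synthesis, was 7.74 on knockout replicate 4 (others 9.45 to 9.84). In wild type Srebf1 was 6.92 on replicate 3, beside 7.15 on replicate 4 (others 9.09 and 9.25). Pklr, the liver pyruvate kinase, was 7.05 on knockout replicate 4 (others 7.66 to 8.12). In wild type Pklr was 5.88 on replicate 3, beside 6.13 on replicate 4 (others 7.81 and 7.76). Slc37a4 was highest in its group on knockout replicate 4 and wild type replicate 3, at 9.16 and 8.74. Cyp4a14 was 12.58 on knockout replicate 4 (others 8.55 to 10.48), while its 14.55 on wild type replicate 3 lay beside 14.60 on wild type replicate 4 (others 12.28 and 12.66). These genes were chosen for this comparison after their values were seen, and the labels hold no record of feeding for single mice.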
